A study of Mus musculus with 6 samples.

Results

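Kdm5b, Rbbp5, Hdac4, Ino80d, Parp1, Nucks1 and Phf3 are 7 chromosome 1 genes for proteins that modify, remodel or bind chromatin. Their rows were found in the authors' deposited table by gene symbol. Each symbol had 1 row, so they make up 7 of the 1140 complete rows and 7 of the 646 rows that the authors tested. These rows cover chromosome 1 in part, and "all tested rows" means these 646. All 7 therefore passed the authors' filter on low values. The table compares whole embryonic mouse retina of 2 genotypes on the C57BL/6 strain at the embryonic stage E15.5. Control retinas were T2fx/+, the allele that the series title writes as Tbr2-f, and are called wild type by the submitters. Knock-in retinas were T2Isl1/+, heterozygous for an allele that expresses the LIM-homeodomain factor Isl1 from the locus of Tbr2 (Eomes). Tbr2 is a T-box transcription factor that some, but not all, retinal ganglion cells make. The allele is read in cells that use the Tbr2 locus, while RNA came from the whole retina, and Isl1 and Eomes themselves were not analysed here. Each group had 3 libraries, and each library was a pool of 8 retinas. The table holds 1 FPKM value per group (fragments per kilobase of transcript, relative to all mapped fragments), so no SD can be given and the depth is unknown.

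DNA in the nucleus is wound around histones, and enzymes that add or remove chemical groups on histone tails change how readily a gene is read. Methylation of lysine 4 on histone H3 (H3K4) marks active promoters and is written by COMPASS-type methyltransferase complexes and erased by KDM5 demethylases. Deacetylases remove acetyl groups and usually lower transcription, remodelers such as INO80 move or exchange nucleosomes, and PARP enzymes attach ADP-ribose chains at DNA breaks and in open chromatin. In the developing retina, such regulators act in dividing progenitors and in the neurons they give rise to.

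None of the 7 genes passed the authors' test, and their levels differed between the genotypes by at most 1.13-fold. A q-value (a p-value adjusted for the number of genes) under 0.05 was given by the authors' deposited table to 0 of 7, against 1.55% of all tested rows. With unadjusted p-values under 0.05 the count was also 0 of 7, against 3.72% of tested rows. With a background this low, 0 of 7 is no result about these genes in particular and does not show that they were unaffected. The knock-in value lay above control for 2 members and below for 5. The authors' deposited table gives every member the q-value 0.9997, which is shared by 629 of the 646 tested rows. In bulk tissue, fewer cells of a type and less RNA per cell cannot be told apart.

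The sequences before the start sites of 3 members are shown because they hold most of the promoter elements found in the 5 members with a RefSeq window. Each line gives the 250 bases before the RefSeq start (build GRCm38.p6, the assembly of mm10), 5′ to 3′ on the strand of the gene. Capitals mark the GC box GGGCGG, the element bound by SP-family factors, and the CCAAT box bound by NF-Y, in either orientation (CCGCCC and ATTGG are the reversed forms). They do not overlap each other. The windows are chr1:131910208-131910457 (plus strand) for Nucks1, chr1:180568641-180568890 (plus strand) for Parp1 and chr1:92180342-92180591 (minus strand) for Hdac4.
Nucks1: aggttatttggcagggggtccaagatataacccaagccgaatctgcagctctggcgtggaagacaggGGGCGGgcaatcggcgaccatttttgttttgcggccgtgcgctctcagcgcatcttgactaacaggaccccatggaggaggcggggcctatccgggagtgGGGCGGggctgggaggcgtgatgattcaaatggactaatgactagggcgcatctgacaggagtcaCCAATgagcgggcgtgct
Parp1: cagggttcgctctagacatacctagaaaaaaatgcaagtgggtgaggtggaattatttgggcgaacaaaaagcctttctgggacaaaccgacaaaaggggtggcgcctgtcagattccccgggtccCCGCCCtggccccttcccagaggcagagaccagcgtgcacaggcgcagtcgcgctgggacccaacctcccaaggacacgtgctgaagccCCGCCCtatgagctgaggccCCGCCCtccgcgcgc
Hdac4: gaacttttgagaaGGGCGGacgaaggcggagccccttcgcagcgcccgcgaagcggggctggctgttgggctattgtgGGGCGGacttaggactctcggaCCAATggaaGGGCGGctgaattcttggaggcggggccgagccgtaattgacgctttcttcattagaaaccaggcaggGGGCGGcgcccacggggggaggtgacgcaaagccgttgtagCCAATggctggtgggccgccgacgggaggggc

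The GC box occurred in the windows of 4 members, Hdac4 (4 copies), Parp1 (3 copies), Nucks1 (2 copies) and Kdm5b (1 copy). The same letters were in 56.4% of 644 promoter windows of tested genes and in 31.1% of all 2014 windows on chromosome 1. These shares count windows, of 500 and 1644 genes, so some genes count more than once, whereas each of the 5 members had 1 window. The member windows are among the 644. The CCAAT box was in Hdac4 (2 copies) and Nucks1 (1 copy), against 33.7% of the windows of tested genes and 31.9% of all. The CCAAT box of Nucks1 lay 18 to 14 bases before its RefSeq start. The GC boxes of Parp1 lay between 124 and 10 bases before its RefSeq start, all 3 in the reverse orientation. RefSeq windows were matched for 5 of the 7 members, and Ino80d and Phf3 are named only.

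Of 10 motif forms searched on both strands, 8 had no match in any of the 5 member windows. These 8 included the forms CTAATGG and CTAATTG of the Isl1 homeodomain site (0.776% and 1.40% of the windows of tested genes, 1.64% and 1.59% of all chromosome 1 windows). The T-box core GGTGTGA was in 2.95% of the windows of tested genes and 4.02% of all, and the TATA element TATAAA in 5.43% and 11.1%. The others were the ETS site CCGGAAG (10.2% and 6.11%), the NRF1 site (6.68% and 3.08%), the YY1 core AAGATGG (4.04% and 5.06%) and the E2F site TTTGGCGC (1.24% and 0.497%). The absence says only that these letters are not in the 250 bases. The member windows held between 10 CpG dinucleotides (Rbbp5) and 23 (Hdac4), with a median of 16. The median was 15 over windows of tested genes and 3 over windows of genes in the table that were not tested. Rbbp5 had the lowest share of G and C, 40% against 54.4% to 65.2% in the other 4 windows. The RefSeq start lay 161 bases inside the listed locus for Rbbp5 and 88 bases inside it for Kdm5b. Their windows thus lie partly within the loci, and the GC box of Kdm5b lies across the listed start. For Parp1 and Hdac4 the RefSeq start lay 84 and 43 bases outside the locus, and for Nucks1 at its first base. The part of these offsets in the base composition was not tested.

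Levels spanned a 20.1-fold range in control and a 19.7-fold range in knock-in retinas. FPKM is a value per length of transcript, so levels can be compared between genes only roughly. The length depends on the transcript models, and the annotation that the authors used is not given. The order was the same in both genotypes, from Parp1 and Nucks1 through Kdm5b, Rbbp5, Phf3 and Hdac4 down to Ino80d. Of the 7 genes, 5 lay above the control median of all tested rows, 10.7 FPKM. Neighbours in that order were separated by at least the 1.20-fold between Parp1 and Nucks1 in control, which narrowed to 1.06-fold in the knock-in. Without replicate values, whether Parp1 and Nucks1 differ in level is not tested. The 7 values of the authors' deposited table sum to 219.8 FPKM for T2fx/+ and 217.5 FPKM for T2Isl1/+. Parp1 and Nucks1 made up most of both sums and differed from control in opposite directions, by -3.64 and 5.54 FPKM. The near-equal sums thus say little about the other members.

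**Figure D1:**
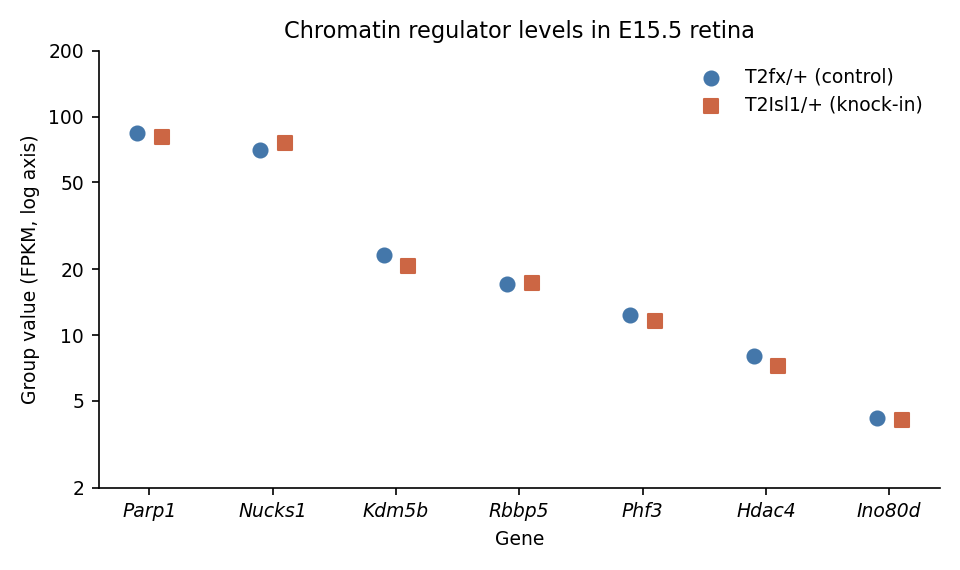
Group values of the 7 chromatin regulators in FPKM on a log axis, with circles for T2fx/+ and squares for T2Isl1/+ retinas, 1 value per group and no error bars. The 2 symbols of each gene lie close together, from Parp1 at 84.4 and 80.8 FPKM to Ino80d at 4.19 and 4.09 FPKM.

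Among the genes that set H3K4 methylation, the demethylase and the methyltransferase subunit had different values. Kdm5b encodes a JmjC-domain demethylase that removes methyl groups from H3K4. Its gene lies on chromosome 1 from 134560090 to 134635290 (plus strand, mm10). The authors' deposited table lists it at 23.3 FPKM for T2fx/+ and 20.7 FPKM for T2Isl1/+. Its log2 fold change of -0.17 (unadjusted p = 0.1215 in the authors' deposited table) was the lowest of the 7, a difference of -11.3%. The control value was the higher of the 2, but 20.7% of all tested rows differed at least as far in either direction.

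Rbbp5 encodes a WD-repeat subunit shared by the COMPASS-type methyltransferases that write H3K4 methylation. The gene (132477206 to 132505821, plus strand) is listed in the authors' deposited table at 17.1 FPKM for T2fx/+ and 17.2 FPKM for T2Isl1/+. Its log2 fold change was 0.01 (unadjusted p = 0.9124 in the authors' deposited table), the nearest to 0 of the 7. The level of Kdm5b relative to Rbbp5 was 1.37 for T2fx/+ and 1.20 for T2Isl1/+, computed from the authors' deposited table. This ratio has no replicate check. Kdm5b and Rbbp5 fall in different groups by transcript length. Relative to the medians of those groups, their log2 fold changes were -0.0931 and -0.0318. The part of transcript length in the ratio was not tested.

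Hdac4 encodes a class IIa histone deacetylase that moves between cytoplasm and nucleus and represses MEF2 target genes in muscle and neurons. Its locus is the longest of the 7 at 251.5 kb (91928784 to 92180298, minus strand). The authors' deposited table lists 8.06 FPKM for T2fx/+ and 7.23 FPKM for T2Isl1/+, a difference of -10.3%. On the log2 scale the difference was -0.16 (unadjusted p = 0.21685 in the authors' deposited table). Hdac4 was thus second to Kdm5b in distance from control, and 24.9% of tested rows differed at least as far.

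Ino80d encodes a metazoan subunit of the INO80 remodeler. It was the least abundant of the 7, at 4.19 FPKM for T2fx/+ and 4.09 FPKM for T2Isl1/+ (authors' deposited table; locus 63047801 to 63114360, minus strand). Its log2 fold change of -0.03 had an unadjusted p of 0.77465 (authors' deposited table). Its longest annotated transcript, 13675 bases, is also the longest of the group. The lincRNA gene Ino80dos starts beside it on the opposite strand, 0.11 kb away in the authors' deposited table, where it is listed at 0.515 and 0.785 FPKM (unadjusted p = 0.70385). The GENCODE M21 model of Ino80dos overlaps the listed locus of Ino80d, whereas the 2 listed loci do not overlap. The annotation that the authors used, and whether counting was by strand, are not given in the sources used here. Whether reads were divided between the 2 genes was not tested. Other annotated genes also lie within the loci of Hdac4, Nucks1, Parp1 and Phf3, in each case with at least 1 on the same strand. These overlaps were taken over whole loci, introns included.

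Parp1 encodes the main poly(ADP-ribose) polymerase, which binds DNA breaks and also opens chromatin at transcribed genes. It was the most abundant of the 7, ranking 37 of 646 tested rows in both genotypes (180568975 to 180601254, plus strand). Its listed values are 84.4 FPKM for T2fx/+ and 80.8 FPKM for T2Isl1/+ (authors' deposited table). The knock-in value differed from control by -4.31%, or -0.06 on the log2 scale (unadjusted p = 0.5666 in the authors' deposited table).

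Nucks1 encodes a small, highly phosphorylated nuclear protein that binds DNA and chromatin and takes part in DNA repair. It had the highest value relative to control, at 70.4 FPKM for T2fx/+ and 75.9 FPKM for T2Isl1/+ (authors' deposited table; locus 131910458 to 131936324, plus strand). Its log2 fold change of 0.11, or 7.88% above control, had an unadjusted p of 0.3304 (authors' deposited table). Its rank among tested rows was 49 in control and 41 in the knock-in. This difference was within the range of genes of like level, where the middle 90% (5th to 95th percentile) of log2 fold changes ran from -0.18 to 0.18.

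Phf3 encodes a large PHD-finger protein that binds the tail of RNA polymerase II and is known as a regulator of transcription and of neuronal genes. It lay at 12.3 FPKM for T2fx/+ and 11.6 FPKM for T2Isl1/+ (authors' deposited table; locus 30802342 to 30874133, minus strand). The knock-in value was thus -0.09 on the log2 scale (unadjusted p = 0.4308 in the authors' deposited table). Kdm5b, Hdac4, Phf3, Parp1 and Ino80d thus lay below control, and Rbbp5 and Nucks1 above. The side of Rbbp5 changed when the median of all tested rows was subtracted (-0.00079), and those of Rbbp5 and Ino80d changed when the median of genes of like transcript length was subtracted (-0.0318 and 0.0446). No replicate value shows how far libraries of 1 genotype differ.

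**Figure D2:**
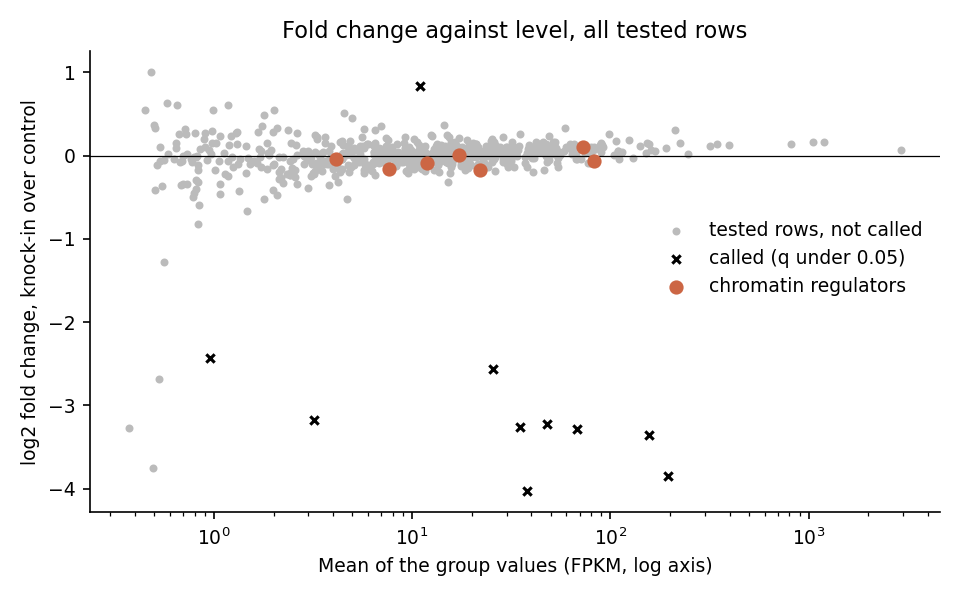
Log2 fold change of knock-in over control against the mean of the group values (FPKM, log axis) for 646 tested rows, with the 7 chromatin regulators as filled circles and the 10 called rows as crosses. The regulators lie between -0.17 and 0.11, inside the band of rows that were not called.

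The median log2 fold change of the 7 genes was -0.06, and that of all tested rows was 0.01. Of all tested rows, 45.4% were below control, against 5 of the 7. When rows were divided into 5 groups by level, Kdm5b stood at percentile 3.10 of the fold changes in its group and Hdac4 at 7.75. Nucks1 stood at percentile 67.7, Ino80d at 45.7 and Rbbp5 at 42.6. Kdm5b was thus the only member outside the middle 90% of its level group, which ran from -0.15 to 0.17. These percentiles describe the group values and are not tests.

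Transcript length and level both moved with these differences. Across the 5 groups by level, the medians of the log2 fold change ran from -0.04 for the lowest levels to 0.07 for the highest. The share of rows below control was 58.9% in the lowest level group and 24.6% in the highest. With 611 tested genes divided into 5 groups by their longest annotated transcript, the group medians of the log2 fold change ran from 0.09 for the shortest transcripts to -0.08 for the longest (6446 to 40378 bases), where 78.0% of genes lay below control. Kdm5b, Hdac4, Phf3 and Ino80d all fell in that longest group, and all 4 lay below control. Relative to the median of their length group, their log2 fold changes were -0.09, -0.08, -0.01 and 0.04. Nucks1 was at percentile 89.3 of its length group, while Kdm5b was at 21.1 and Parp1 at 19.7 of theirs. The part of transcript length or of level in the members' values was not tested.

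**Figure D3:**
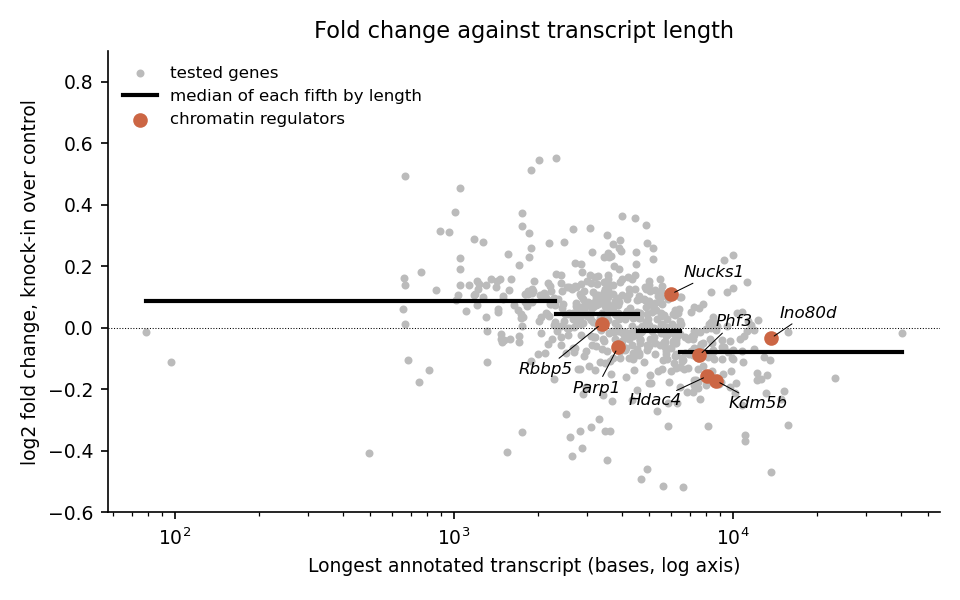
Log2 fold change of knock-in over control against the longest annotated transcript (bases, log axis) for tested genes, with horizontal lines for the median of each of 5 length groups and labelled circles for the 7 regulators. Of 611 genes, 19 lie beyond 0.6 in either direction and are not drawn. Ino80d sits above the median line of the longest group, and Kdm5b and Hdac4 sit below it.

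By position, 3 of the 7 genes lie near each other and the rest are spread along the chromosome. Nucks1, Rbbp5 and Kdm5b are on the plus strand, with 2.62 Mb between the end of Nucks1 and the start of Kdm5b and 36 tested rows in between. Their log2 fold changes of 0.11, 0.01 and -0.17 had different signs. The other neighbouring members are at least 28.8 Mb apart. Rbbp5 is closely packed, with the kinase gene Dstyk ending 0.164 kb before it (5.76 and 5.57 FPKM) and Tmem81 starting 0.408 kb after it (0.781 and 0.617 FPKM) in the authors' deposited table. Next to Kdm5b, the authors' deposited table lists Rabif at 19.9 and 21.9 FPKM and Ppp1r12b at 4.21 and 3.76 FPKM.

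Hdac4 has the mesenchymal factor Twist2 80.8 kb away, listed by the authors' deposited table at 0.677 FPKM for T2fx/+ and 0.0703 FPKM for T2Isl1/+ (unadjusted p = 0.00555, q = 0.623). On the other side Ndufa10, a respiratory chain subunit, is listed at 53.0 and 53.8 FPKM (authors' deposited table). Among the nearest tested rows on either side of the 7 genes, 0 of 14 had a q-value under 0.05, against 1.55% of all tested rows. At an unadjusted p-value under 0.05 it was 1 of 14, Twist2, against 3.72%. The nearest tested row before Phf3 carries no gene name. Slc45a3 and Rab29 beside Nucks1, Itpkb and Lin9 beside Parp1, Nrp2 beside Ino80d and Ptp4a1 beside Phf3 were likewise not called.

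Of 23 other chromatin genes listed for this chromosome, 6 were in no row analysed here and Hjurp, a centromere histone chaperone, shared its row with A730008H23Rik. A further 2 had rows that were not tested (Prdm14, listed at 0 in both groups, and Sp100, at most 0.0498 FPKM in the authors' deposited table), and 14 were tested in rows of their own. Of these 14, 0 passed at a q-value under 0.05, against 1.55% of all tested rows, and 0 at an unadjusted p-value under 0.05, against 3.72%, so the counts are near the background. The knock-in value lay above control for 8 and below for 6, with a median log2 fold change of 0.00 and a range of -0.09 to 0.17. The shared row of Hjurp, left out of these counts because it cannot be divided between its 2 symbols, is listed at 57.2 and 52.3 FPKM (log2 fold change -0.13, unadjusted p = 0.2983 in the authors' deposited table). The 7 regulators had a range of -0.17 to 0.11.

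The polycomb gene Rnf2, whose protein places ubiquitin on histone H2A, had the smallest p-value of the 14. The authors' deposited table lists it at 43.0 FPKM for T2fx/+ and 48.3 FPKM for T2Isl1/+, a log2 fold change of 0.17 (unadjusted p = 0.1394). Of the remodeler group, Uchl5, a deubiquitinase bound to INO80, is listed at 25.8 and 27.8 FPKM (authors' deposited table). Actr3, at 88.7 and 91.4 FPKM (authors' deposited table), was listed with this group as an actin-related protein. Its protein is best known from the Arp2/3 complex, which is not a remodeler, and it counts among the 14. The INO80 partners Ino80d and Uchl5 had log2 fold changes of -0.03 and 0.11 (unadjusted p = 0.77465 and 0.4128 in the authors' deposited table). The side of Ino80d changed when the median of its length group was subtracted (0.0446). Whether these 2 genes differ in their change was not tested.

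Among acetyltransferase complex genes, 2 of 5 lay above and 3 below control. The authors' deposited table lists the coactivator Ncoa2 at 16.4 and 15.3 FPKM and the NSL complex subunit Kansl3 at 23.2 and 22.5 FPKM. The zinc-finger gene Ikzf2, whose protein family recruits deacetylase complexes, is listed at 1.20 and 1.15 FPKM (unadjusted p = 0.76295 in the authors' deposited table).

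For the DNA break response, the list held 2 tested genes. The authors' deposited table lists the DNA end-binding gene Xrcc5 at 19.6 FPKM in both groups and Bard1, the partner of BRCA1, at 5.59 and 5.41 FPKM. Of the genes linked to lysine methylation 1 was tested in a row of its own. It was Cdc73, a subunit of the PAF1 elongation complex that supports H3K4 methylation, at 25.2 and 25.4 FPKM (authors' deposited table). In the chromosome structure group the telomere-binding gene Terf1 is at 14.1 and 14.2 FPKM (authors' deposited table).

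**Figure D4:**
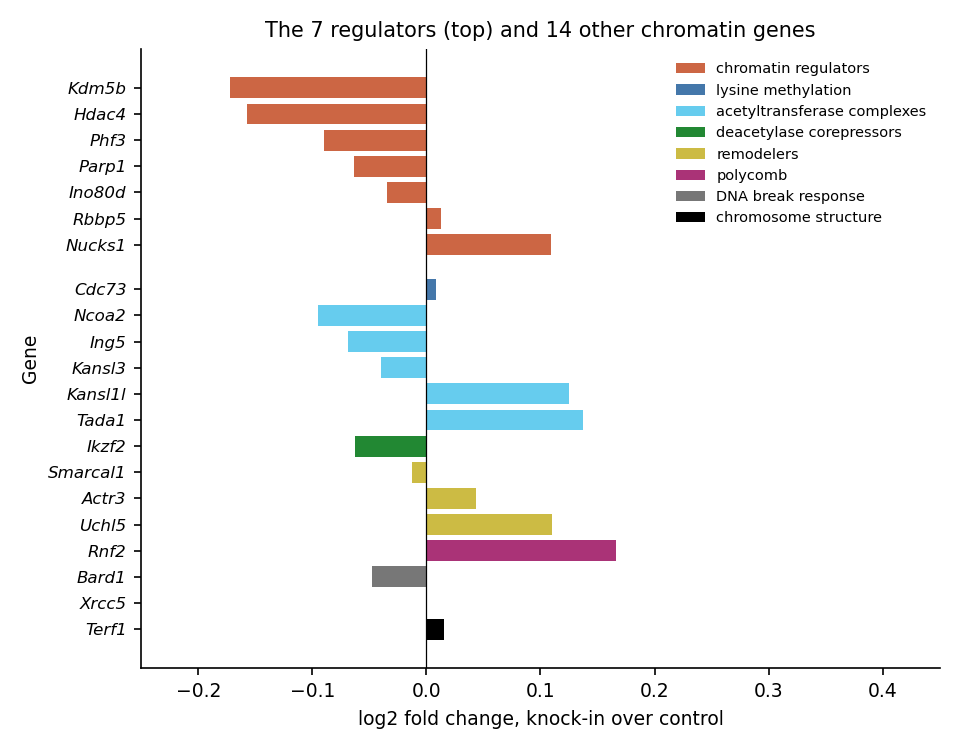
Log2 fold change of knock-in over control for the 7 regulators (top) and for 14 other tested chromatin genes, 1 bar per gene and no error bars. The 14 are coloured by listed role, and Actr3 is coloured with the remodelers although it is best known from the Arp2/3 complex. No bar is longer than 0.17 in either direction, and bars of both signs occur in the 2 sets.

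Markers of the tissue were checked in the same rows. All 8 retinal markers with a row were tested, from 0.907 FPKM upwards, with a sum of 520.7 FPKM for T2fx/+ and 548.9 FPKM for T2Isl1/+. Hes6 made up most of both sums (379.8 and 413.8 FPKM), and the other 7 markers summed to 141.0 and 135.2 FPKM. Lens crystallins were lower in the knock-in, with 7 of 7 tested called and a sum over 8 listed genes of 1038 and 93.6 FPKM (Lgsn is at 0 in both). Mesenchymal and vascular markers summed to 38.1 and 29.3 FPKM with 1 of 6 called, and muscle markers to 2.17 and 0.657 FPKM with the 1 tested called and 1 of 4 at 0 in both groups, all in the authors' deposited table. The part of such tissue in the levels of the 7 regulators was not tested. Among tested rows the smallest difference with an unadjusted p-value under 0.05 was 1.18-fold and the smallest that was called was 1.79-fold, so differences of the size seen in the 7 genes were smaller than any that the authors' test called among these rows.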

How the data were processed

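RNA from 3 pools of T2fx/+ and 3 pools of T2Isl1/+ mouse retinas was sequenced. Tools named in the submitters' processing notes, without their order, are Cufflinks 2.1.1, TopHat2 2.1.1 and CASAVA, with the build mm10. Which annotation the authors used is not given in these sources. The authors deposited 1 value per gene and group, read as FPKM because of the tool named, with the log2 fold change without a pseudocount, a test score that was not used, and the p-value and q-value, per the file headers. The fold changes matched the ratios of the group values within 1.06e-05. The rows analysed cover part of chromosome 1, and 1 incomplete row was left out. Groups came from the sample labels.

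No test of single genes was added. A gene was called at q under 0.05. Positions had 1 added to each start. Transcript lengths, strands and overlaps came from GENCODE M21 (mm10), found for 611 of 646 tested rows (94.6%), and promoter sequences from RefSeq. Medians, ranks and percentiles were computed with pandas 2.3.3, and the adjustment and length centring were tested on simulated data. Alternatives covered q under 0.01, unadjusted p, adjustment over the analysed rows, a floor of 1 FPKM, a pseudocount of 1 and centring on medians. Named genes were the 7 members, their nearest tested rows, and per role of the list the smallest p and the highest level. The members, lists and motifs were chosen with earlier results of these data known. A further listed gene is not reported here. The labels do not say whether pools shared litters.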

Additional observations from a re-analysis of the deposited data

How the results depend on the processing

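The count of called regulators was 0 under each setting tried: q under 0.01, unadjusted p under 0.05, Benjamini-Hochberg adjustment over these 646 tested rows, and a floor of 1 FPKM. Apart from q under 0.01, which was not run for them, the same held for the 14 other chromatin genes. Neither a stricter q nor a floor can add a call. Of 37 alternatives computed, 34 kept direction and side of the threshold and 3 reversed. Relative to the median of all tested rows Rbbp5 went from 0.01 to -0.00079 on the log2 scale, and relative to its length group to -0.0318. Ino80d went from -0.0345 to 0.0446 relative to its length group. These 2 genes lay nearest to control, and both centrings subtract a fixed amount. The median of the 7 genes was -0.08 relative to all tested rows, and ran from -0.08 to -0.05 with 1 member left out at a time. With 5 of the 7 members below control, leaving out any 1 member could not bring the median to control or above. Subtracting the positive median of all tested rows (0.01) could not reverse a member below control or the median of the 7 genes. A pseudocount of 1 cannot change a sign. Many of the 34 outcomes that stayed the same were thus fixed in advance and do not show robustness. Libraries could not be left out, since the table holds combined values. No paired analysis was possible because the replicates of a group are merged into a single column without replicate numbers.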
